A study of Homo sapiens with 14 samples.

Results

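The mevalonate arm is the stretch of sterol synthesis that leads from acetyl-CoA to farnesyl and geranylgeranyl diphosphate. It was followed here through 8 genes: ACAT2, HMGCS1, MVK, PMVK, MVD, IDI1, FDPS and GGPS1. All probes that the platform annotation assigns to these genes were taken, whatever their values, which gave 9 probes of the 47323 distinct probes listed, for 8 of the 11983 named genes tested. The 8 genes themselves were chosen with earlier results of these data known. ACAT2 has 2 probes and each other gene has 1. All 9 were detected above the negative controls, at a detection p-value under 0.05, on 14 of 14 arrays and were among the 24894 probes tested.

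As background, ACAT2 and HMGCS1 join acetyl-CoA units into HMG-CoA, from which mevalonate is made. MVK and PMVK phosphorylate mevalonate in turn, MVD turns the product into isopentenyl diphosphate, and IDI1 interconverts isopentenyl and dimethylallyl diphosphate. FDPS joins these units into farnesyl diphosphate, the branch point towards squalene and cholesterol, dolichol, ubiquinone and protein farnesylation, and GGPS1 lengthens it to geranylgeranyl diphosphate for protein geranylgeranylation. Many of these genes are known targets of the sterol regulatory element binding proteins (SREBPs), which are released from the endoplasmic reticulum when its membrane is low in sterol and act at promoters together with the CCAAT-binding factor NF-Y. Prostate cancer cells are known to make cholesterol themselves, and androgen is known to raise SREBP activity in LNCaP cells.

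RNA was measured on Illumina BeadChips in 2 human prostate cancer cell lines. LNCaP is an androgen-sensitive line that was grown in medium with fetal bovine serum. LNCaP-abl was derived from LNCaP by long culture without androgen and was grown in phenol-red-free medium with charcoal-stripped serum, so that line and medium cannot be told apart. Dilazep, an inhibitor of nucleoside transport, was given at 50 µM for 48 h and hybridised on 3 arrays per line, beside 4 control arrays per line, 2 with water (H2O) and 2 with DMSO. Because the labels of the controls describe treatment with bufalin or its control, a change with dilazep cannot be told apart from any difference between that experiment and the dilazep experiment. No label says that replicates were separate cultures, so each p-value reflects the variation among these arrays alone, possibly technical. A change of a transcript in bulk RNA cannot be told apart from a change in the share of cells that hold it.

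The median probe signal ranged from 144.6 to 154.6 over the arrays, with 17925 to 19856 probes detected. Of 9 prostate epithelial marker genes, 8 were measured, with KLK3 detected on 11 arrays and the other 7 on 14. With dilazep, 1 of the 8 was called higher and 2 lower in LNCaP (KRT8 at 0.43, KRT18 at -0.59 and EPCAM at -0.40 on the log2 scale). In LNCaP-abl 3 were called higher (TMPRSS2 at 0.62, KRT8 at 0.35 and FOXA1 at 0.31) and 3 lower (KLK2 at -2.39, KLK3 at -1.59 and HOXB13 at -1.15). Of 19 marker genes of basal, fibroblast, immune and endothelial cells, 6 had a named probe and 4 a tested one. VIM and CD68 were detected on 14 arrays, VWF on 12, COL1A1 on 11, CD14 on 1 and PECAM1 on 0. The summed signal of these 6 genes ran from 1825.2 to 1972.8 in LNCaP controls and from 2040.8 to 2499.8 with dilazep, and from 1688.2 to 2028.3 and from 1868.1 to 2080.5 in LNCaP-abl. CD68, which is also a lysosomal protein of non-immune cells, was called higher with dilazep by its brightest probe in both lines (1.01 and 0.54), while its other probes read 0.13 and 0.06, not called, in LNCaP and 1.82, called, and 0.55, not called, in LNCaP-abl. The endothelial marker VWF was called lower in both (-1.82 and -0.89). VIM (0.16 and 0.25) and COL1A1 (-0.39 and -0.08) were not called in LNCaP or LNCaP-abl. The part of these markers in the results was not tested.

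The promoters are shown because most transcripts of the arm moved together. RefSeq (GRCh38.p14) start-site windows of 300 bases, from 250 before to 50 after an annotated start, were held for 7 of the 8 genes, 12 windows in all. The window with the most NF-Y boxes (CCAAT, or ATTGG where the box lies on the other strand) is printed for each of the 5 genes whose probes rose by at least 1 on the log2 scale in both lines with the main processing, followed by the window of PMVK, whose probe passed the test in neither. Sequences run 5′ to 3′ on the strand of the gene, and capitals mark the boxes.
HMGCS1, chr5:43313363-43313662, minus strand: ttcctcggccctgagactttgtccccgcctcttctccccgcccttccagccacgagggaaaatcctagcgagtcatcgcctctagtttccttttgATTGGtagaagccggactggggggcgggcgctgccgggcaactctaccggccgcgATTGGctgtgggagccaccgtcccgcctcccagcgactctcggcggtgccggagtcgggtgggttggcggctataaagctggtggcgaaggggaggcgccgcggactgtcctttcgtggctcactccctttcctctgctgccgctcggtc
MVK, chr12:109573544-109573843, plus strand: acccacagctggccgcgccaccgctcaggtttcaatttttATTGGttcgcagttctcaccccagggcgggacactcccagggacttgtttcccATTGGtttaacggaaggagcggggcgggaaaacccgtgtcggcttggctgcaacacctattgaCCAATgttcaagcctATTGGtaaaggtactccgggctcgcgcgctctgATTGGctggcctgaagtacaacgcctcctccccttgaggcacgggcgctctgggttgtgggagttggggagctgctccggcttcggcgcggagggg
MVD, chr16:88663042-88663341, minus strand: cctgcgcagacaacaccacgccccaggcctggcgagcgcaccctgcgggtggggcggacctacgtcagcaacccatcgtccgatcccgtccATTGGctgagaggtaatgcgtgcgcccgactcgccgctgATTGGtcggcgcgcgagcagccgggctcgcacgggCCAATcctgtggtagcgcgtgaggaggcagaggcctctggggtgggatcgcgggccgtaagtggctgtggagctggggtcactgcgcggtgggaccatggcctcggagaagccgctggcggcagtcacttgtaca
IDI1, chr10:1048837-1049136, minus strand: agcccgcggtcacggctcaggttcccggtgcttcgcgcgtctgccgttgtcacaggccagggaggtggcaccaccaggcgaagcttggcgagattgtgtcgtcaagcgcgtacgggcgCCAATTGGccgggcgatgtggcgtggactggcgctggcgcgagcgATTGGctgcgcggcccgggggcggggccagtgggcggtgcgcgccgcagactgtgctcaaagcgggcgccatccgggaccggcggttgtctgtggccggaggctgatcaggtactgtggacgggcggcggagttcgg
FDPS, chr1:155308616-155308915, plus strand: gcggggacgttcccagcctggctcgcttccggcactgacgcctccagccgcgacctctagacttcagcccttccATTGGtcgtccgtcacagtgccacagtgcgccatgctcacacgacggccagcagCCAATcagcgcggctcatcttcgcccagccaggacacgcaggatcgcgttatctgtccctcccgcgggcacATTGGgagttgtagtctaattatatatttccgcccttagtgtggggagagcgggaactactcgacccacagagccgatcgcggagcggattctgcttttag
PMVK, chr1:154936670-154936969, minus strand: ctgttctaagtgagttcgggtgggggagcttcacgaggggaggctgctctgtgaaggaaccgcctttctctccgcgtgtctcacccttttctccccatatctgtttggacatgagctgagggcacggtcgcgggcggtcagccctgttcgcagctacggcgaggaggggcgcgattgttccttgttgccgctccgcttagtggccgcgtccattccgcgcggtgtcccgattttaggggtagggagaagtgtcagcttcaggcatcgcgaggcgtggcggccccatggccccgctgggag
The windows of HMGCS1, MVK, MVD, IDI1 and FDPS hold 2, 5, 3, 3 and 3 boxes, and 2 of those of IDI1 overlap each other. The PMVK window, the only window of that gene, holds 0, and so do the HMGCS1 window not printed and an IDI1 window not printed. Because the printed windows of the other genes were picked by box count, their counts cannot be set against that of PMVK. The windows of PMVK, MVK and IDI1 shown here lie inside the annotated span of their genes.

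**Figure D1:**
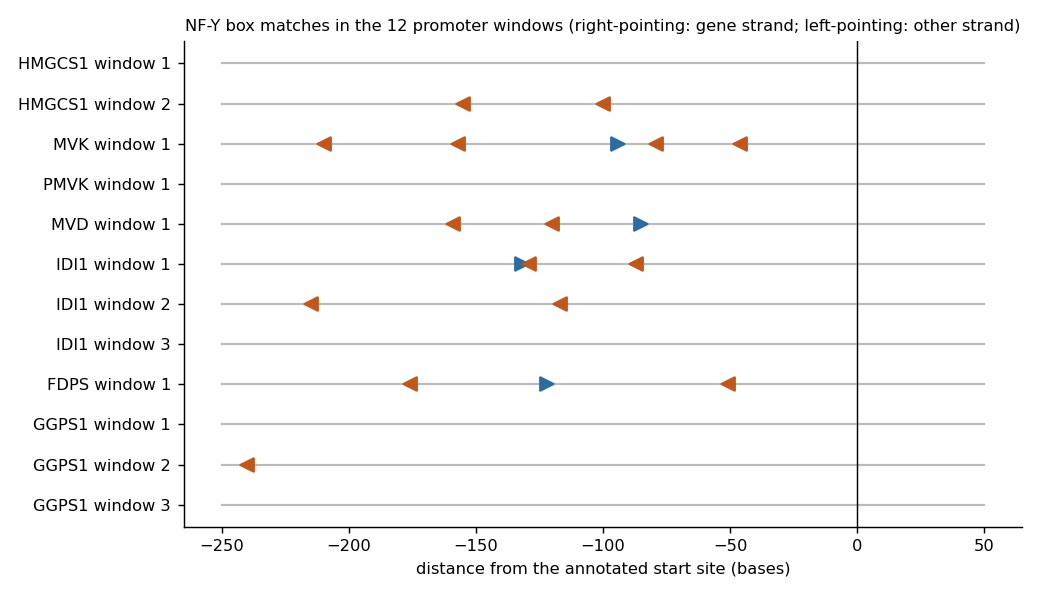
Positions of CCAAT boxes in the 12 RefSeq windows of 7 mevalonate-arm genes. The x axis is the distance from the annotated start in bases, and triangles point right for a box on the gene's strand and left for one on the other. Boxes lie upstream of the start in 7 windows, and 5 windows hold 0.

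Of the 12 windows, 7 hold at least 1 box and 6 hold at least 2, against 34.6% and 10.8% of all 35116 RefSeq windows of this length, searched on both strands. At least 3 boxes were present in 4 windows, against 3.26% of all. The windows are not independent, since those of HMGCS1 overlap and so do 2 of IDI1. The sterol element was searched only as the letters TCACNCCAC, which were found in 0 of the 12 windows (1.13% of all). Other forms of the element were not searched, and 0 of 12 lies near the share of all windows. The windows therefore cannot be said to lack sterol elements. The E-box CACGTG was also found in 0 (7.26% of all), and the GATA-type motif GATAA lay in 1, that of FDPS (22.7% of all). Of the 3 GGPS1 windows, 1 holds a box. These letters describe the windows only and were not tested against the array values.

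Dilazep was followed by a higher level of most of the arm in both lines. In LNCaP, 7 of the 9 probes rose, GGPS1 fell and PMVK did not pass the test. In LNCaP-abl, 7 rose, GGPS1 now among them, and PMVK and the second ACAT2 probe did not pass. A probe is called here when limma's adjusted p was under 0.05 over all 24894 probes. With that rule 32% of all probes were called in LNCaP (15.7% higher, 16.3% lower) and 35.9% in LNCaP-abl (18.6% higher, 17.3% lower). HMGCS1, MVK, MVD, IDI1 and FDPS were called with a rise of at least 1 on the log2 scale in each line, a size and call met by 2.92% of all probes in LNCaP and 4.09% in LNCaP-abl. That count changed with the processing: MVK was under 1 in both lines without background correction and in the authors' processed values, and MVD was at 0.96 in LNCaP in the latter. The median log2 change of the 9 probes was 1.02 in LNCaP and 1.19 in LNCaP-abl, beside 0.01 and 0.02 over all probes tested.

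**Figure D2:**
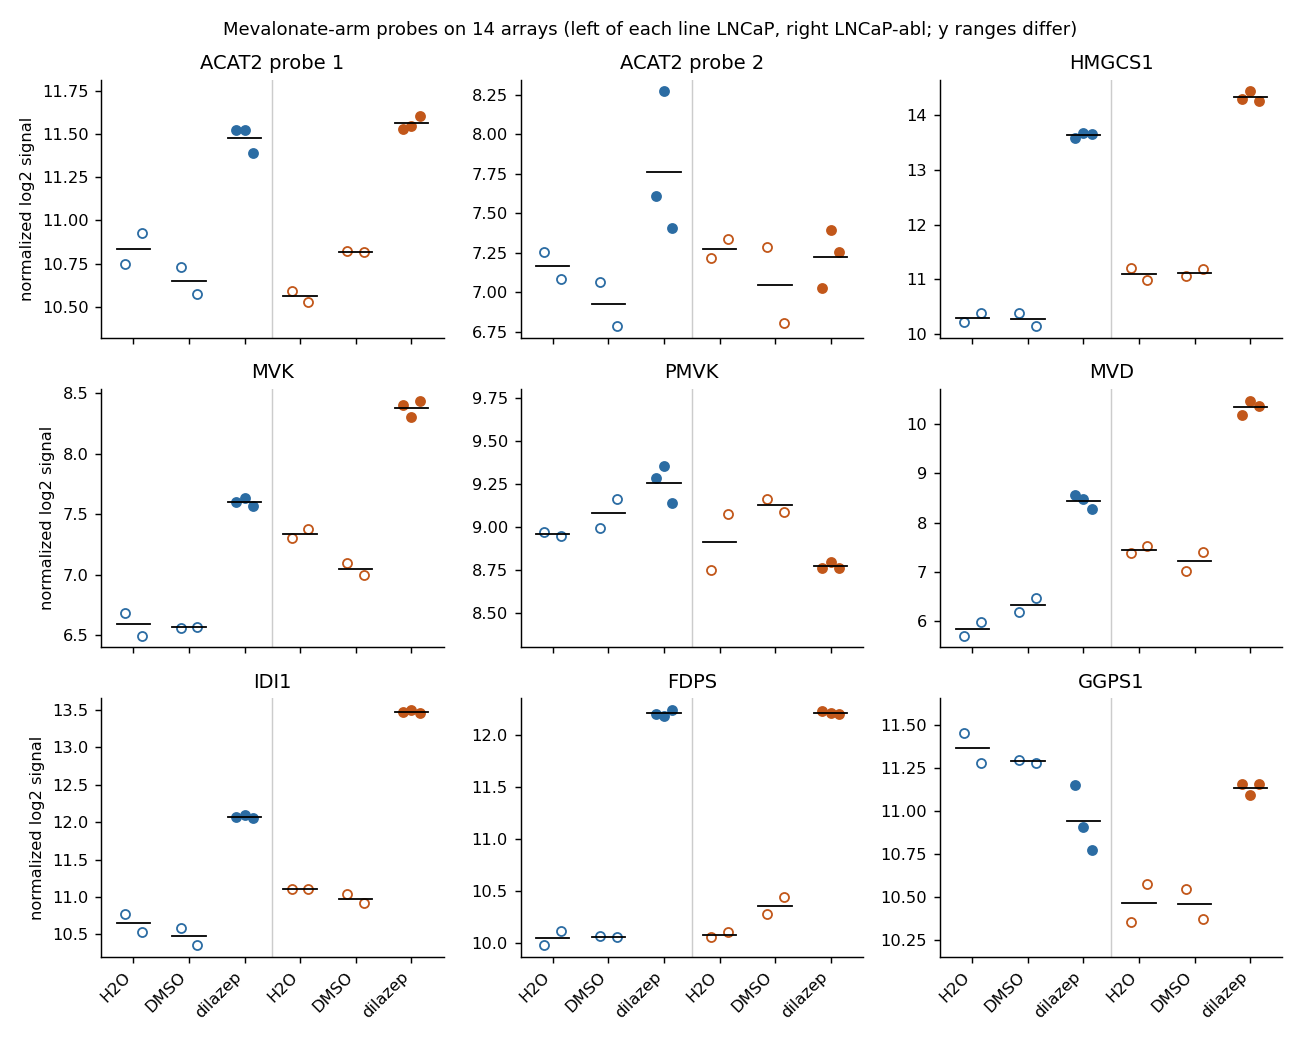
Normalized log2 signal of each mevalonate-arm probe on each of the 14 arrays, by line and treatment. Points are arrays, open for controls and filled for dilazep, horizontal bars are group means, and each panel has its own y range. Dilazep arrays stand above all controls of their line for HMGCS1, MVK, MVD, IDI1, FDPS and ACAT2 probe 1, and GGPS1 moves in opposite directions.

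ACAT2 encodes the cytosolic thiolase that condenses acetyl-CoA units into acetoacetyl-CoA, the entry to the arm (gene ID 39, chr6:159762045-159779112). In LNCaP its brighter probe, ILMN_1708672, had normalized log2 signals of 10.74 and 10.93 with H2O, 10.73 and 10.57 with DMSO, and 11.53, 11.52 and 11.39 with dilazep. In LNCaP-abl the levels were 10.59 and 10.53, 10.82 and 10.82, and 11.53, 11.55 and 11.61. Every dilazep array was above every control of its line, and the 3 dilazep arrays of each line lay close together. The log2 change was 0.74 in LNCaP (SE 0.09, adjusted p = 1.14e-04), a 1.67-fold rise, and 0.87 in LNCaP-abl (adjusted p = 1.24e-05), a 1.83-fold rise.

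The second ACAT2 probe, ILMN_2133799, was dim, with deposited signals of 224.5 to 453.2 over all arrays. In LNCaP it read 7.25 and 7.08 with H2O, 7.07 and 6.79 with DMSO, and 7.61, 8.27 and 7.41 with dilazep, so that replicate 2 stood apart from the other dilazep arrays. In LNCaP-abl it read 7.22 and 7.33, 7.29 and 6.81, and 7.02, 7.39 and 7.26, with full overlap of the arms. The change in LNCaP was 0.72 (SE 0.20, adjusted p = 0.0140), and it was not called without dilazep replicate 2 (0.46, adjusted p = 0.0620) or against H2O alone (0.59, adjusted p = 0.0828). In LNCaP-abl the change was 0.06 (95% interval -0.36 to 0.49), so the probes of this gene disagree there.

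HMGCS1 encodes the cytosolic synthase that makes HMG-CoA, the precursor of mevalonate, and showed the largest change of the 9 probes in each line (gene ID 3157, chr5:43287470-43313412). Its probe, ILMN_1797728, read 10.23 and 10.39 with H2O, 10.39 and 10.15 with DMSO, and 13.57, 13.68 and 13.65 with dilazep in LNCaP. LNCaP-abl arrays read 11.21 and 10.99, 11.06 and 11.18, and 14.28, 14.42 and 14.25. The arms were far apart in both lines, and the LNCaP-abl controls lay above the LNCaP controls. With dilazep the level was 10.1-fold higher in LNCaP (95% interval 8.64 to 11.9, log2 change 3.34, SE 0.11, adjusted p = 2.71e-09). In LNCaP-abl it was 9.26-fold higher (7.89 to 10.9, log2 change 3.21, adjusted p = 4.13e-10). The deposited signals of this probe were 1169.2 to 1502.4 in LNCaP controls and 12616.2 to 14221.6 with dilazep. In LNCaP-abl they were 2237.1 to 2730.5 in controls and 18243.7 to 22501.1 with dilazep. On the array that read 22501.1 the brightest probe read 35407.7, and flattening at high signal was not tested.

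MVK encodes mevalonate kinase, which adds the first phosphate to mevalonate (gene ID 4598, chr12:109573272-109598125). Probe ILMN_1786310 read 6.69 and 6.50 with H2O, 6.56 and 6.57 with DMSO, and 7.60, 7.63 and 7.57 with dilazep in LNCaP. The same groups of LNCaP-abl read 7.30 and 7.38, 7.10 and 7.00, and 8.40, 8.30 and 8.44. The dilazep arrays did not overlap the controls in either line, and the LNCaP dilazep arrays were only a little above the LNCaP-abl H2O arrays. The rise was 2.03-fold in LNCaP (log2 change 1.02, SE 0.09, adjusted p = 8.43e-06) and 2.28-fold in LNCaP-abl (1.19, adjusted p = 6.98e-07). This is a dim probe, with deposited signals of 209.6 to 222.4 in LNCaP controls, and its log2 change was 0.54 in LNCaP and 0.76 in LNCaP-abl without background correction, and 0.38 and 0.59 in the authors' processed values. The calls held in each.

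PMVK encodes phosphomevalonate kinase, which adds the second phosphate (gene ID 10654, chr1:154924740-154942658). In LNCaP, probe ILMN_1715896 read 8.97 and 8.95 with H2O, 8.99 and 9.16 with DMSO, and 9.29, 9.35 and 9.14 with dilazep. Levels in LNCaP-abl were 8.75 and 9.07, 9.16 and 9.09, and 8.76, 8.80 and 8.76. The arms overlapped in both lines. The log2 change was 0.24 in LNCaP (95% interval 0.01 to 0.47, adjusted p = 0.108) and -0.25 in LNCaP-abl (-0.47 to -0.02, adjusted p = 0.0928). Neither passed, but with median scaling the value was 0.33 in LNCaP (adjusted p = 0.0359) and -0.42 in LNCaP-abl (adjusted p = 0.00773), and both also passed without background correction and in the authors' processed values.

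MVD encodes the decarboxylase that makes isopentenyl diphosphate, the 5-carbon unit of all isoprenoids (gene ID 4597, chr16:88651940-88663091). Probe ILMN_1657550 read 5.70 and 5.97 with H2O, 6.18 and 6.47 with DMSO, and 8.56, 8.49 and 8.27 with dilazep in LNCaP. For LNCaP-abl the levels were 7.37 and 7.52, 7.02 and 7.40, and 10.18, 10.47 and 10.37. The 4 arms followed each other without overlap, from LNCaP controls through LNCaP-abl controls and LNCaP dilazep to LNCaP-abl dilazep. The rise was 5.14-fold in LNCaP (95% interval 4.18 to 6.31, log2 change 2.36, SE 0.14, adjusted p = 3.13e-07) and 8.09-fold in LNCaP-abl (6.58 to 9.93, log2 change 3.02, adjusted p = 5.59e-09). This probe is dim, with deposited signals of 171.1 to 204 in LNCaP controls. The log2 change was 1.30 in LNCaP and 2.32 in LNCaP-abl without background correction. In the authors' processed values it was 0.96 and 2.03, and the call was kept in each.

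IDI1 encodes the isomerase of isopentenyl and dimethylallyl diphosphate (gene ID 3422, chr10:1039152-1056704). In LNCaP, probe ILMN_1755075 read 10.77 and 10.54 with H2O, 10.59 and 10.36 with DMSO, and 12.07, 12.09 and 12.05 with dilazep. The LNCaP-abl groups, in the same order, read 11.11 and 11.11, 11.04 and 10.91, and 13.48, 13.50 and 13.46. Each arm stood clear of the others, and the 3 dilazep arrays of each line differed little. The rise was 2.85-fold in LNCaP (95% interval 2.46 to 3.30, log2 change 1.51, SE 0.10, adjusted p = 7.59e-07) and 5.41-fold in LNCaP-abl (4.66 to 6.27, log2 change 2.44, adjusted p = 2.24e-09).

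FDPS encodes farnesyl diphosphate synthase, the enzyme that nitrogen-containing bisphosphonates inhibit (gene ID 2224, chr1:155308866-155320665). Probe ILMN_1804248 read 9.99 and 10.12 with H2O, 10.07 and 10.06 with DMSO, and 12.20, 12.18 and 12.24 with dilazep in LNCaP. In the other line they were 10.06 and 10.11, 10.28 and 10.44, and 12.23, 12.21 and 12.20. The dilazep arrays of both lines came to nearly the same level, from controls that were also close. The rise was 4.43-fold in LNCaP (95% interval 3.88 to 5.06, log2 change 2.15, SE 0.09, adjusted p = 2.02e-08) and 3.97-fold in LNCaP-abl (3.48 to 4.53, log2 change 1.99, adjusted p = 4.50e-09). RefSeq lists 10 pseudogenes of FDPS, and the probe's sequence was not used here, so binding of their transcripts was not tested.

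GGPS1 encodes geranylgeranyl diphosphate synthase, which uses the product of FDPS (gene ID 9453, chr1:235327216-235344532). In LNCaP, probe ILMN_1692276 read 11.45 and 11.28 with H2O, 11.30 and 11.28 with DMSO, and 11.15, 10.91 and 10.77 with dilazep. LNCaP-abl gave 10.36 and 10.58, 10.55 and 10.37, and 11.16, 11.09 and 11.16. LNCaP dilazep arrays lay below all LNCaP controls, while LNCaP-abl dilazep arrays lay above all controls of that line. The level fell by 0.38 on the log2 scale in LNCaP (SE 0.11, adjusted p = 0.0208) and rose by 0.67 in LNCaP-abl (SE 0.11, adjusted p = 4.77e-04), a 1.59-fold rise. The fall was not called under 8 of 17 alternatives, with adjusted p between 0.00209 and 0.0979 over all 17: these include median scaling (-0.30), DMSO controls alone (-0.35), only the arrays of LNCaP (adjusted p = 0.0541), and fits without 1 of H2O replicate 1, DMSO replicate 2, dilazep replicate 2 or dilazep replicate 4.

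Values that did not overlap between dilazep and controls follow the same pattern. In LNCaP, 7 probes were higher on every dilazep array than on every control, as for 18.8% of all probes, and GGPS1 was lower, as for 19.1%. In LNCaP-abl, 7 were higher, as for 21.5% of all probes, and 0 were lower, beside 19.9% of all probes.

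The response to dilazep differed between the lines for 4 of the 9 probes. The difference was tested as an interaction, the log2 change in LNCaP-abl minus that in LNCaP, and 22.6% of all probes were called for it (11.3% higher, 11.3% lower). GGPS1 differed most, by 1.06 (SE 0.16, adjusted p = 7.07e-04). It rose by 0.67 in LNCaP-abl and read -0.38 in LNCaP, a fall not called under 8 of 17 alternatives. IDI1 rose more in LNCaP-abl by 0.93 (SE 0.14, adjusted p = 6.60e-04), or 1.90-fold (95% interval 1.54 to 2.34). The interaction calls of GGPS1 and IDI1 held under all 23 alternatives.

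MVD rose more in LNCaP-abl by 0.65 (SE 0.19, adjusted p = 0.0296), and PMVK had the lower response there, by -0.48 (SE 0.15, adjusted p = 0.0354). These were less firm, and the size for MVD depended on the processing. It was 1.02 without background correction (adjusted p = 2.47e-06) and 1.07 in the authors' processed values (adjusted p = 2.60e-06). The MVD call was lost in 11 of 23 alternatives, with a difference of 0.29 against H2O controls alone (adjusted p = 0.438), 1.02 against DMSO controls alone (adjusted p = 0.0130) and 0.42 with median scaling (adjusted p = 0.181), and also without any 1 of LNCaP H2O replicate 3, DMSO replicate 3, dilazep replicate 2 or 4, or LNCaP-abl H2O replicate 2, DMSO replicate 1, dilazep replicate 2 or 3. The PMVK call was lost in 13 of 23 alternatives (adjusted p up to 0.116), 11 of them fits that left out 1 array; among single arrays it held only without LNCaP DMSO replicate 3, LNCaP dilazep replicate 4 or LNCaP-abl H2O replicate 2.

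For the other probes no difference in response was called. The interval was -0.46 to 0.20 for HMGCS1, -0.43 to 0.11 for FDPS, -0.12 to 0.44 for MVK and -0.15 to 0.43 for the brighter ACAT2 probe. The dim ACAT2 probe had a difference of -0.65 with an interval of -1.25 to -0.05 (adjusted p = 0.115). With median scaling, which moved the median of all probes to -0.13, FDPS and the dim ACAT2 probe were called lower (-0.47 and -0.90). MVK was called higher in the authors' processed values (0.21, adjusted p = 0.0107).

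**Figure D3:**
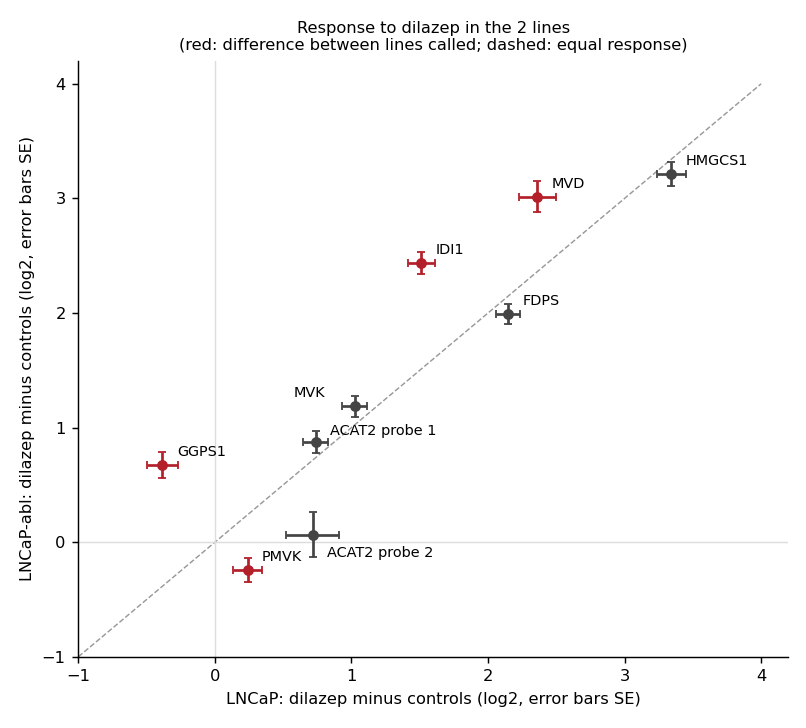
Log2 change with dilazep in LNCaP (x axis) against that in LNCaP-abl (y axis) for the 9 mevalonate-arm probes. Error bars are standard errors from limma, the dashed line marks equal change, and red marks the 4 probes whose difference between lines was called. IDI1, MVD and GGPS1 lie above the line and PMVK below it.

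The lines already differed in the arm without dilazep. In control arrays MVD was higher in LNCaP-abl by 1.25 on the log2 scale (2.38-fold, adjusted p = 8.15e-06), HMGCS1 by 0.82 (1.77-fold, adjusted p = 3.47e-05), MVK by 0.61 (1.53-fold, adjusted p = 1.10e-04) and IDI1 by 0.48 (1.40-fold, adjusted p = 0.00121). GGPS1 was lower by 0.87 on that scale (-0.87, adjusted p = 3.84e-05). In this comparison 36% of all probes were called (18.3% higher, 17.7% lower). The control arrays of the lines did not overlap for these 5, with 18.1% of all probes higher and 17.8% lower in that way. FDPS (0.16, 95% interval -0.01 to 0.34), PMVK (interval -0.21 to 0.21) and both ACAT2 probes (-0.05 and 0.11) were not called. FDPS was called in the authors' processed values (0.14, adjusted p = 0.0140). For MVK the size was 0.30 without background correction and 0.21 in the authors' processed values. For MVD the size was 0.57 without background correction and 0.39 in the authors' processed values, and 1.61 and 0.89 with H2O and DMSO controls alone.

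Under dilazep, 4 probes were higher in LNCaP-abl than in LNCaP, 1 was lower and 4 were not called, against 41.5% of all probes called (20.6% higher, 20.9% lower). MVD was higher in LNCaP-abl by 1.90 (3.74-fold, adjusted p = 5.92e-07), IDI1 by 1.41 (2.65-fold, adjusted p = 4.66e-07), MVK by 0.78 (adjusted p = 4.19e-05) and HMGCS1 by 0.69 (adjusted p = 3.67e-04). PMVK was lower (-0.48, adjusted p = 0.00407). GGPS1 (0.19, 95% interval -0.07 to 0.46) and FDPS (0.01, interval -0.20 to 0.21) were not called, nor were the brighter ACAT2 probe (0.08) and the dim one (-0.54, adjusted p = 0.0566). The dim probe was called lower under 6 of 12 alternatives. Among them were median scaling (-0.80), the authors' processed values (-0.25) and the fit without LNCaP dilazep replicate 4 (-0.72). The brighter probe of this gene was not called under any of 13 alternatives, with adjusted p from 0.288 to 0.852. For MVK the size was 0.51 with median scaling and 0.41 in the authors' processed values. The control arrays of a line enter its dilazep change and the line comparison alike, so these values are not independent of each other.

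The order of the 6 groups was read from their means. For HMGCS1, MVD, MVK, IDI1 and the brighter ACAT2 probe, LNCaP-abl with dilazep was highest and LNCaP with dilazep next, with no overlap between them. For that ACAT2 probe the gap was only 0.08, and the difference was not called. The share of all probes without overlap between these groups is not given here. For FDPS the dilazep groups of the lines overlapped. For HMGCS1 the H2O and DMSO groups overlapped within each line, and for MVK those of LNCaP. GGPS1 had another order, with LNCaP controls highest and LNCaP-abl controls lowest.

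Between the vehicles, limma called 0 of 24894 probes for DMSO against H2O averaged over the lines, with 1117 at an unadjusted p under 0.05. None of the mevalonate probes was among these 1117, and their unadjusted p ran from 0.0829 for MVK to 0.949 for HMGCS1. The widest member differences averaged over the lines were -0.24 for the dim ACAT2 probe and 0.17 for PMVK. Within a line the vehicles differed most for MVD, whose DMSO mean was above the H2O mean by 0.49 in LNCaP, without overlap, and whose H2O mean was above the DMSO mean by 0.24 in LNCaP-abl.

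The next stage of the pathway, from squalene to cholesterol, changed in the same direction. Each gene outside the arm is represented by its brightest tested probe, and over 1 probe per named gene 39.6% were called in LNCaP (21.8% higher, 17.8% lower) and 46.5% in LNCaP-abl (25% higher, 21.5% lower). Of 11 measured genes of 13 listed, 10 rose and 1 fell in LNCaP (median 1.25), and 9 rose and 1 fell in LNCaP-abl (median 1.75), where HSD17B7 was not called (0.25). TM7SF2, a sterol C14 reductase, rose by 1.77 and 2.49 (adjusted p = 1.17e-07 and 7.95e-10), and LSS, which cyclises oxidosqualene to lanosterol, by 2.26 and 2.59, with its other probes at 0.87 and 1.12 in LNCaP and 2.05 and 1.76 in LNCaP-abl. DHCR7, a late reductase of the pathway, rose by 1.57 in LNCaP, and SC5D, the sterol C5 desaturase, by 3.27 in LNCaP-abl. The 1 gene that fell was LBR, a nuclear envelope protein with the same C14 reductase activity (-2.31, adjusted p = 2.93e-05, and -0.77, adjusted p = 0.0258); it was picked after its values were seen, and its other probe read -0.78 in LNCaP and -0.36 in LNCaP-abl, not called in the latter. Of these 11 genes, 5 responded more strongly or with a smaller fall in LNCaP-abl by the interaction test and 1 the other way, beside 28.5% of named genes called (13.4% higher, 15.1% lower), with SC5D at 1.58 (adjusted p = 6.38e-05) and TM7SF2 at 0.73 (adjusted p = 0.00178).

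**Figure D4:**
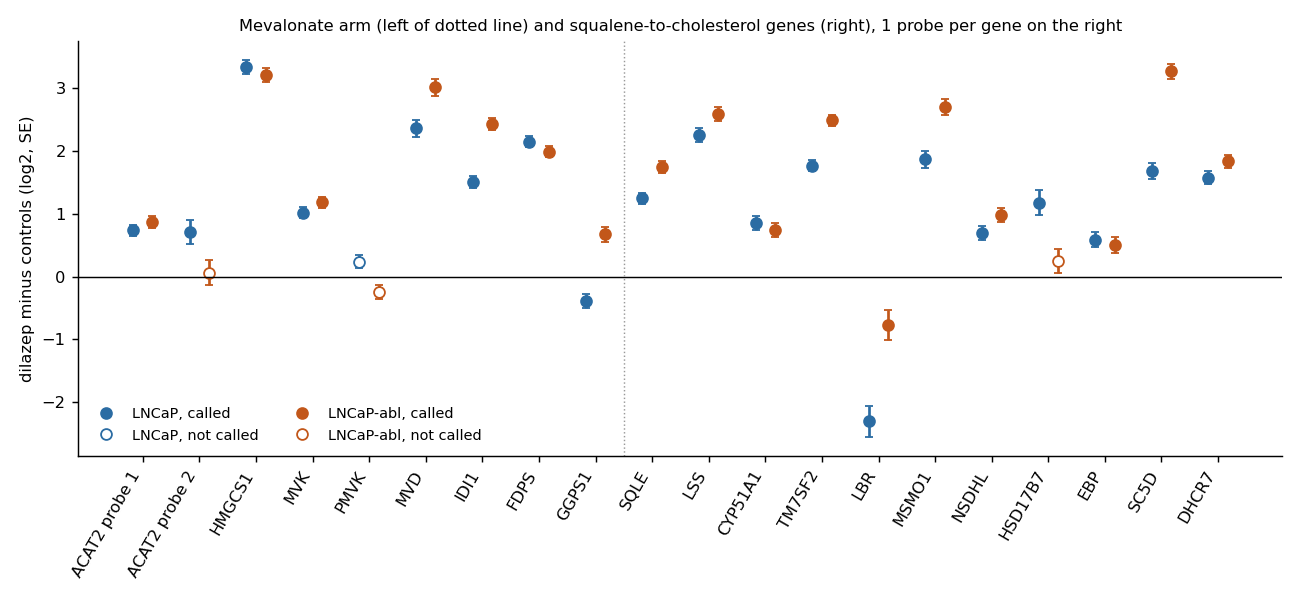
Log2 change with dilazep in LNCaP (blue) and LNCaP-abl (orange) along the sterol pathway, with mevalonate-arm probes left of the dotted line and squalene-to-cholesterol genes right of it. Filled points were called, open points were not, and error bars are standard errors. Most points lie above 0, and LBR lies below it in both lines.

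Upstream supply genes rose and the SREBP controllers changed in part. All 3 measured genes of acetyl-CoA supply rose in both lines (medians 0.82 and 0.96): ACSS2, which makes acetyl-CoA from acetate, by 1.96 and 1.78 (0.99 and 1.30, and 2.00 and 1.73, by its other probes), ACLY, which makes it from citrate, by 0.78 and 0.96 (0.34 and 0.69 by its other probe), and the citrate carrier SLC25A1 by 0.82 and 0.53. Of 7 SREBP control genes, 3 rose in LNCaP and 4 in LNCaP-abl, with 0 lower (medians 0.15 and 0.38). INSIG1, which retains the SREBP escort in the endoplasmic reticulum and is itself an SREBP target, rose by 1.79 (adjusted p = 5.90e-07) and 2.33 (adjusted p = 1.02e-08), and its response was larger in LNCaP-abl by 0.54 (adjusted p = 0.0295). Its other probe rose by 2.45 and 2.61, and the difference of 0.16 was not called (adjusted p = 0.641). INSIG2 rose by 0.39 and 0.79. SREBF2, which encodes SREBP-2, rose by 0.46 in LNCaP (adjusted p = 0.0327), beside a difference of 0.41 between DMSO and H2O controls over both lines (unadjusted p = 0.0109, not called), and SCAP, the escort, by 0.54 in LNCaP-abl (adjusted p = 0.00127).

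Genes that use the products of the arm did not move as a group. Of 12 measured enzymes of 14 that use isoprenoid diphosphates, 1 rose and 2 fell in LNCaP, and 2 rose and 3 fell in LNCaP-abl, with medians of -0.06 and -0.04. PDSS1, which builds the ubiquinone side chain, fell in both lines (-1.09 and -2.07, adjusted p = 1.22e-04 and 2.23e-07), and its other probe read -1.32 and -2.48. FNTA, the shared alpha subunit of farnesyl and geranylgeranyl transferases, fell by 1.15 in LNCaP (adjusted p = 3.62e-04) and stood at 0.26 in LNCaP-abl (adjusted p = 0.288), a difference of 1.41 between the lines (adjusted p = 0.00185). DHDDS, of dolichol synthesis, rose by 0.46 and 0.62, though its other probe was not called (0.11 and 0.23). Of the 3 genes that process prenylated proteins, ICMT fell by 0.42 in LNCaP (adjusted p = 0.00865), RCE1 and ZMPSTE24 were not called there, and none of the 3 was called in LNCaP-abl, where ICMT, RCE1 and ZMPSTE24 read -0.12, -0.06 and -0.04 with unadjusted p over 0.05. ACAT1, the mitochondrial thiolase related to ACAT2, rose by 0.34 and 0.99, a difference of 0.66 (adjusted p = 0.00493).

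Likeness within the arm was measured as Pearson's r over the 14 arrays with the mean of the standardized levels of the 8 genes, which itself holds each gene. FDPS (0.98), HMGCS1 (0.97), the brighter ACAT2 probe (0.97) and IDI1 (0.93) followed it most closely, then MVD (0.90) and MVK (0.88), with GGPS1 at 0.23 and PMVK at -0.05. Outside the arm the 5 genes with the highest r were TM7SF2 (0.99), MSMO1 (0.99), DHCR7 (0.99), TMEM106B (0.98) and ID1 (0.98). The arrays share 2 lines and 1 treatment, so r mostly reflects these groups and is a description only. MSMO1, the sterol C4 methyl oxidase, rose by 1.87 and 2.70, but its 2 other probes read -0.02 and 0.02 in LNCaP, not called, and 0.78 and 3.10 in LNCaP-abl. TMEM106B, a lysosomal membrane protein, rose by 1.61 and 2.25, and ID1, an inhibitor of DNA binding, by 2.36 and 3.41, with other probes at 1.03 and 2.51 for TMEM106B and at 0.32, not called, and 0.97 for ID1.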

How the data were processed

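Values were measured in RNA of 2 cell lines on 14 arrays. Per the file headers, the authors deposited for each array a linear signal intensity without visible background subtraction and a detection p-value of every probe. A second deposited table holds the authors' processed values of 22912 probes on a log2-like scale; the submitters' processing notes name lumi, whose settings were not found in the sources used. Columns were matched to samples by titles. Signals were background corrected with normexp, quantile normalized and put on the log2 scale (neqc, offset 16, limma 3.58.1, R 4.3.3; plots with matplotlib 3.10.9, Python 3.11.15). Probes with a detection p-value under 0.05 on at least 2 arrays were kept (24894). One limma fit (lmFit, eBayes) of 6 group means gave 2-sided p-values, adjusted by Benjamini-Hochberg over all kept probes; H2O and DMSO means had equal weight. The fit was checked on simulated arrays with independent noise and known changes of few probes in the LNCaP dilazep group only. In these data a far larger share of probes was called, so that check does not cover changes this wide. A gene outside the arm is represented by its brightest kept probe; up to 3 genes per list with the smallest p are named, beside all members and the 5 most alike genes. The members and lists were chosen with earlier results of these data known. Alternatives were other background correction, scaling, filters, vehicles, a replicate block, 1 probe per gene, only the arrays of a line, and each array left out. The number of arrays limits the precision. No label gives a chip or run that could be used as a block.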

Additional observations from a re-analysis of the deposited data

Results flagged for a closer look

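The response of 4 mevalonate-arm transcripts to dilazep differed between the lines by the interaction test, LNCaP-abl minus LNCaP on the log2 scale. GGPS1 differed by 1.06, IDI1 by 0.93, MVD by 0.65 and PMVK by -0.48. The GGPS1 and IDI1 calls held under all 23 alternatives, and those of MVD and PMVK were lost in 11 and 13 of them.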

How the results depend on the processing

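The dilazep calls of HMGCS1, FDPS, IDI1, MVD, MVK and the brighter ACAT2 probe held in both lines under all 17 alternatives. The count of probes called lower in LNCaP was 1, and 0 with median scaling, DMSO controls alone, the replicate block or only the arrays of the line (0 to 1 with 1 array left out). In LNCaP-abl it was 0, and 1 without background correction, with median scaling or in the authors' processed values (0 to 1). For the response difference it was 1, then 3 with median scaling and 0 with H2O or DMSO controls alone (0 to 1). Between the lines under dilazep it was 1, and 2 without background correction, with median scaling, in the authors' processed values, with the stricter detection filter or with the replicate block (1 to 2).

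Values that changed sign were small. With median scaling these were -0.12 for the dim ACAT2 probe in LNCaP-abl, -0.18 and -0.091 for the response difference of the brighter ACAT2 probe and MVK, 0.00178 for the brighter ACAT2 probe between control lines, and -0.057, -0.18 and -0.24 for GGPS1, the brighter ACAT2 probe and FDPS between lines under dilazep. With 1 vehicle, the dim ACAT2 probe came to -0.051 in LNCaP-abl (H2O), the brighter one to -0.086 for the response difference and 0.17 between control lines (DMSO), and PMVK to -0.046 between control lines (H2O). With 1 array left out, the dim ACAT2 probe ran from -0.057 to 0.18 in LNCaP-abl and from -0.00758 to 0.23 between control lines, PMVK from -0.081 to 0.081 between control lines, and FDPS from -0.00671 to 0.022 between lines under dilazep. The cause was not tested.

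Median scaling moved the median of all probes to -0.13 for the response difference and -0.11 between lines under dilazep, and the share of higher calls in LNCaP-abl from 51.9% to 35.5%. The deviations of same-numbered arrays had r from -0.16 to 0.05 over 8 pairs, with 0 over 0.1. They were taken from each group's own mean, over few arrays. These r therefore cannot show whether the numbers pair the samples. The replicate block called 6004 probes in LNCaP and 8954 in LNCaP-abl, beside 7969 and 8938. Under it the MVD response difference was not called (0.50, adjusted p = 0.0776). Dim probes (MVK, MVD, the second ACAT2 probe) have the least certain sizes.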
